A study of Mus musculus with 18 samples.

Results

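RNA-seq of small cell lung tumors that lack CARM1 was compared with RNA-seq of tumors that keep it, called TKO after their 3 deleted tumor suppressor genes. The comparison takes the 3 CARM1 knockout libraries and the 3 TKO libraries, chosen by the names of their count columns, which is 6 of the 9 RNA-seq libraries and 6 of the 18 samples of the study. All 46078 genes of the count table were its members. Within each genotype the libraries are called replicates 1 to 3 (TKO1 to TKO3, KO1 to KO3), an order without meaning, and every knockout library is shown because KO3 differed from KO1 and KO2.

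The study asked what CARM1 and its methylation of the transcription factor NFIB do in this cancer, with RNA-seq and ATAC-seq of tumors of 3 genotypes. TKO mice carried floxed alleles of Rb1, p53 (Trp53) and a retinoblastoma relative, which is Rbl1 in the labels and Rbl2 in the Results. TKO;Carm1KO mice carried floxed Carm1 in addition, and both genotypes carried a Rosa26 tdTomato reporter that Cre switches on. Adenovirus with Cre was instilled into the trachea at 8 weeks of age, and cancer cells were taken from the lungs 28 weeks later, from 3 independent animals of each genotype. The virus gives Cre to any lung cell it enters, not to a single cell type. The Methods describe sorting of tdTomato-positive cells, whereas the Results speak of tumor biopsies, so how far other cells were removed was not settled here.

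CARM1 is an arginine methyltransferase that methylates histone H3 and other chromatin proteins and acts as a coactivator of transcription. Small cell lung cancer is a neuroendocrine cancer: most tumors express the dense-core granule proteins that store peptide hormones and many genes of neurons. In mice and patients the same cancer also occurs with few neuroendocrine and many mesenchymal transcripts, often with active YAP or Notch signaling.

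Levels are given as CPM, counts relative to the size of each library, scaled with edgeR's TMM factors. The libraries held 17874531, 20915057 and 19090012 counts on genes in TKO and 15848866, 18615124 and 17819472 in the knockout. A gene without a count could have had up to 3 counts by counting error, which was 0.144, 0.131 and 0.133 CPM in TKO1 to TKO3 and 0.203, 0.175 and 0.169 CPM in KO1 to KO3. Such limits cover counting error only. The genotypes differed in the makeup of their libraries: 12.2, 9.995 and 11.02% of the TKO reads fell outside genes against 4.89, 4.84 and 5.14% of the knockout reads, and 21298, 20701 and 21448 genes had a count in TKO against 18382, 18886 and 20104 in the knockout. Mitochondrial genes held 1.70, 2.92 and 3.51% of the counts in TKO and 1.72, 1.51 and 1.72% in the knockout. What these differences contribute to the results was not tested.

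Much of the transcriptome differed between the genotypes. A gene was called when its adjusted p was under 0.1 and its log2 fold change (knockout over TKO) at least 0.8 in either direction. Of 15514 genes tested, 6021 (38.8%) were called, 3185 higher (20.5%) and 2836 lower (18.3%) in the knockout, and in 8505 genes (54.8%) the libraries of the genotypes did not overlap. These shares of all genes are to be set beside every list count below that is given without them. Over all genes tested, log2 fold changes had a median of -0.03. Scaling by library totals alone shifted this median by -0.27, scaling by upper quartile by -0.13 and DESeq2, which tested 27468 genes, by -0.20. Testing those 27468 genes with TMM already gave a shift of -0.13. The direction of the balance moved with it: higher genes were 52.9% of the calls with TMM and 39.4% with library totals. An exact permutation test of a single gene with 3 against 3 libraries cannot give a p under 0.1, so all p-values given come from the fit across all genes.

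Carm1 itself (chromosome 9 from 21546894 to 21592623 of GRCm38) was measured in every library at 97.7, 103 and 44.5 CPM in TKO and 63.4, 79.1 and 50.8 CPM in the knockout. The groups overlapped, and Carm1 was not called (log2 fold change -0.34, SE 0.31, adjusted p = 0.41). Because reads were summed over the whole gene, including exons outside the floxed stretch, this level is no check of the deletion. Among the floxed genes, Rb1 stood at 92.3, 60.5 and 73.3 CPM in TKO and 23.1, 18.4 and 48.7 CPM in the knockout, lower in each knockout library than in any TKO library. Its call (-1.32, SE 0.55, adjusted p = 0.0933) was lost when any library other than KO3 was left out. Rbl2 fell by 0.89 (adjusted p = 0.0707), also a call that any of TKO1, TKO2, KO1 or KO2 decided. Trp53, at 9.62 to 12.4 CPM in TKO and 5.54 to 7.86 CPM in the knockout, was not called. Rbl1 varied within TKO, at 12.9, 1.49 and 67.8 CPM, around a knockout level of 50.6 to 55.4 CPM, and was not called. Of these 4 suppressor genes 2 were called lower and none higher (50% called, beside 38.8% of all genes), with a median log2 fold change of -0.82. The counts were the same without KO3, and 3 were called lower with library totals, where Trp53 was called too.

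Nfib, a transcription factor that CARM1 methylates (chromosome 4 from 82290173 to 82705750), had 420, 580 and 571 CPM in TKO and 74.5, 216 and 87.2 CPM in the knockout. All knockout libraries lay below all TKO libraries, with KO2 the highest of them (log2 fold change -2.06, SE 0.40, adjusted p = 0.00799; -2.69 without KO2). Nfic, another nuclear factor I, rose from 98.6, 141 and 202 CPM to 294, 498 and 234.8 CPM (adjusted p = 0.0369), a call lost without TKO1 or without KO2 (log2 fold change 0.85 without KO2). The methyltransferase gene Prmt7 rose as well, from 42.8, 49.2 and 25.7 CPM to 85.7, 123 and 75.2 CPM. Nfia was called lower (adjusted p = 0.0524) with overlapping libraries, a call lost without TKO1, TKO2, KO2 or KO3, and Nfix, Prmt2, Prmt3, Prmt5, Prmt6 and Prmt9 were not called. Prmt8, at no more than 5.19 CPM, did not pass the filter on low counts with all libraries and was called lower without KO3 (adjusted p = 0.0925), and Prmt1 was not matched to the count table. Over the 11 family members tested, 2 were called higher and 2 lower (36.4%, beside 38.8% of all genes), with a median log2 fold change of 0.08 that was -0.20 and -0.06 under library totals and upper quartile and -0.09 with DESeq2, which tested 12 members.

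The knockout libraries separated from TKO, and KO3 separated from the other knockout libraries. Principal components were taken from the 6 libraries and the 500 genes that varied most between them. The first component (83.1% of the variance) placed TKO1 to TKO3 at 74.1, 72.5 and 85.7, KO1 at -105, KO2 at -89.0 and KO3 at -37.9. The second component (10.2%) held KO3 at 60.2 and all other libraries between -25.5 and 1.20. Across genes, which are not independent replicates, log2 CPM correlated at r = 0.937 between KO1 and KO2, at 0.879 between KO1 and KO3, and at 0.871 between KO2 and KO3. KO3 was also the knockout library nearest to TKO, at 0.678 to 0.734 against 0.579 to 0.629 for KO1 and 0.636 to 0.690 for KO2.

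Genes called without KO3 show where KO3 followed KO1 and KO2, though not what KO3 alone raised. A fit without KO3 called 6416 of 16185 genes (39.6%), 3207 higher (19.8%) and 3209 lower (19.8%), as a fit of fewer libraries. Of the 3209 lower genes, KO3, which had no part in that call, lay below all TKO libraries in 2727 (84.98%), within their range in 382 (11.9%) and above all of them in 100 (3.12%). Of the 3207 higher genes it lay above all TKO libraries in 96.2%. The same exercise put the left-out KO1 beyond TKO in 98.2% of the lower and 97.8% of the higher genes, and the left-out KO2 in 96.8% and 95.7%. In the lower genes the median difference from the TKO mean, on the scale log2(CPM + 1), was -1.11 in KO3 and -1.61 in the other two. In the higher genes it was 1.49 in KO3 and 1.71 in the other two. Gains were thus seen in KO3 in nearly all genes called without it, while more of the losses were missing from it.

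**Figure D1:**
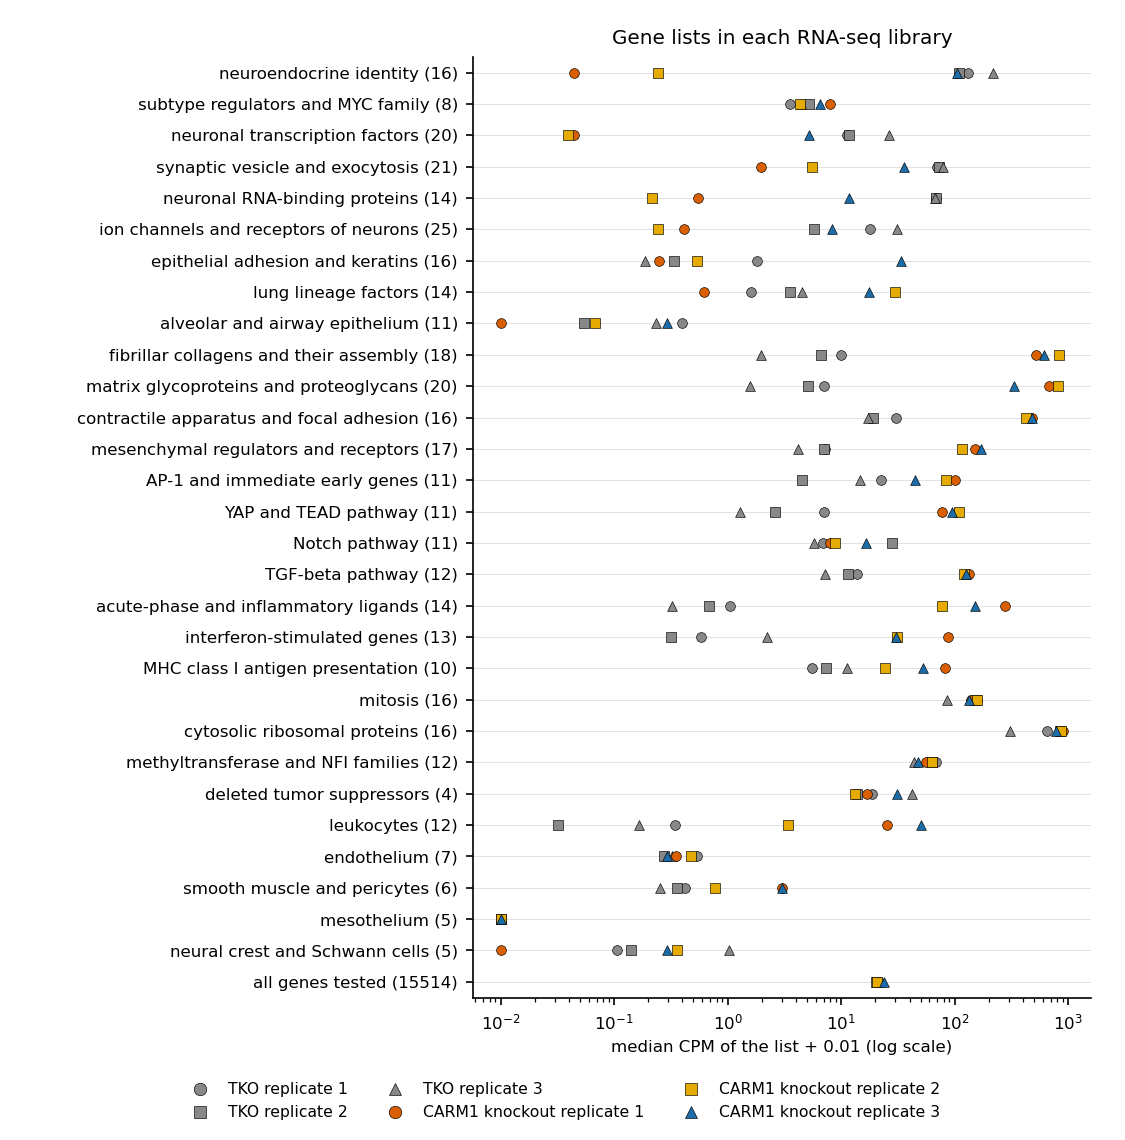
Median CPM of each gene list (number of genes in brackets) in each of the 6 libraries, on a log scale with 0.01 added. The neuroendocrine list lies near TKO in KO3 (105 CPM) and far below in KO1 and KO2 (0.0339 and 0.233 CPM), the neuronal RNA-binding list lies below TKO in all 3 (11.7 CPM in KO3), and the collagen list lies at 526 to 830 CPM in all 3 knockout libraries against 1.95 to 9.90 CPM in TKO.

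Most neuroendocrine transcripts were far lower in KO1 and KO2 than in KO3. The median of 16 neuroendocrine identity genes was 131, 109 and 216 CPM in TKO and 0.0339, 0.233 and 105 CPM in the knockout, and the list summed to 2336, 2165 and 4995 CPM in TKO and 314, 446 and 2602 CPM in the knockout. Single genes weigh on these sums: Scg2 held 1844 CPM in TKO3 and Calca 833 CPM in KO3, both picked after their values were seen. In KO1 and KO2 all 16 genes lay below every TKO library, beside 6210 and 6001 of all 15514 genes tested. In KO3, 8 lay below, 5 within and 3 above the TKO range, beside 5432, 4434 and 5648 of all genes tested. With all libraries in the fit, 2 of the 16 genes were called lower and none higher (12.5% called, beside 38.8% of all genes; median log2 fold change -2.15). Without KO3, 14 were called lower and the median was -9.37. Such medians without KO3, here and in the neuronal lists, hold fitted values of genes with few or no counts in KO1 and KO2 and are no bounds. The exceptions were the carboxypeptidase gene Cpe (284, 276 and 444 CPM in TKO; 254, 256 and 295 CPM in the knockout), which made up most of the list's sum in KO1 and KO2, and the adhesion molecule gene Ncam1 (159, 170 and 284 CPM in TKO; 34.6, 149 and 99.3 CPM in the knockout), both named after their values were seen. In bulk RNA, fewer cells of a type and less RNA per cell cannot be told apart.

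Single members show how KO3 differed. Insm1, a zinc finger factor of neuroendocrine cells, had 257, 326 and 254 CPM in TKO and 0, 4.43 and 83.9 CPM in the knockout. Chga, the granin of dense-core granules, had 336, 125.3 and 334 CPM in TKO and 0.203, 0.525 and 210 CPM in the knockout, so that KO3 lay inside the TKO range. Calca, which encodes the precursor of calcitonin gene-related peptide, had 21.96, 11.4 and 5.14 CPM in TKO, 0 and 0.350 CPM in KO1 and KO2, and 833 CPM in KO3. In Calca, Pcsk1 and Resp18 KO3 exceeded every TKO library, while it lay below all of them in Insm1. These members were singled out after their values had been seen. By the naming rule, the genes called lower were Uchl1, a ubiquitin hydrolase (414, 387 and 425 CPM in TKO; 24.1, 33.4 and 181 CPM in the knockout; -2.36, SE 0.85, adjusted p = 0.0632; -3.79 without KO3), and the prohormone convertase Pcsk2 (44.5, 16.4 and 130 CPM in TKO; 0, 0 and 6.41 CPM in the knockout; adjusted p = 0.0927). Both calls were lost when any library other than KO3 was left out, and DESeq2 called neither.

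The promoter of Chga is printed as an example from this list because both the RNA of the gene and the accessibility of this region set KO3 apart from KO1 and KO2. It was taken from RefSeq promoters on GRCm38.p6, 250 bases before to 50 after the start of the gene, at chr12:102554691-102554990 on the plus strand. Capitals mark the E-box CAGCTG, the letters bound by many basic helix-loop-helix factors, which this window holds 2 times and which was found in 16.3% of all 32851 promoters of the table.
Chga: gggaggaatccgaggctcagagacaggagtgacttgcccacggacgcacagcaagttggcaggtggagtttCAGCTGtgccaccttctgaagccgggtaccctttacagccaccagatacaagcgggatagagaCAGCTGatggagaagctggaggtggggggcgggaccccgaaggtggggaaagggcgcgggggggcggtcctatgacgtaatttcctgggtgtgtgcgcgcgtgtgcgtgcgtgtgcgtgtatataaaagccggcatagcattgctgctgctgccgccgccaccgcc

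Lists of neuronal genes beyond hormone storage also had their highest knockout median in KO3. For 14 neuronal RNA-binding proteins the median was 69.0, 67.9 and 67.7 CPM in TKO and 0.542, 0.204 and 11.7 CPM in the knockout. All 14 lay below TKO in every knockout library, 12 were called lower (14 without KO3), and the median log2 fold change was -4.05 (-8.35 without KO3). The splicing factor Rbfox1 had 33.5, 61.1 and 44.0 CPM in TKO and 0.0678, 0.233 and 0 CPM in the knockout, at or near the limit of detection in all 3 (adjusted p = 0.00292). Rbfox3, another splicing factor of neurons, had 26.9, 40.2 and 13.9 CPM in TKO and 0, 0.0583 and 0.450 CPM in the knockout (adjusted p = 0.00751). Elavl2, a neuronal ELAV-like protein, had 410, 309 and 17.6 CPM in TKO and 0.0678, 0 and 6.69 CPM in the knockout, so that KO3 came close to TKO3 (adjusted p = 0.0375, not called with the replicate block).

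Of 20 neuronal transcription factors 12 could be tested. Of these, 4 were called lower and none higher (33.3% called, beside 38.8% of all genes), with a median log2 fold change of -3.76. Without KO3, 8 were called lower (median -6.17), where 39.6% of all genes were called. DESeq2, which tested 18 members, called 7 lower. Sox11, a SOX factor of neuronal differentiation, had 342, 356 and 326 CPM in TKO and 4.54, 8.40 and 35.8 CPM in the knockout, all below TKO with KO3 the highest (log2 fold change -4.39, SE 1.35, adjusted p = 0.0383; -5.67 without KO3; call lost without KO1, without KO2 and with DESeq2). The zinc finger factor Myt1l held 98.8, 98.7 and 99.0 CPM in TKO and 0, 0 and 12.3 CPM in the knockout (adjusted p = 0.0958). Pax5 was low in all knockout libraries, at 1.15, 0 and 0.225 CPM, but spread from 2.93 to 46.4 CPM in TKO (adjusted p = 0.0654). The calls of Myt1l and Pax5 were lost in 9 and 7 of 14 alternatives. Sox1, a factor of neural progenitors, had 62.2, 43.2 and 149 CPM in TKO and 0, 0.0583 and 17.5 CPM in the knockout, without overlap, and was called only without KO3 and in 2 other settings.

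The synapse list held 21 proteins of vesicles and exocytosis. Of these, 7 were called lower and none higher (33.3% called, beside 38.8% of all genes), with a median log2 fold change of -2.03. Called lower were 11 with library totals, 9 with upper quartile and 9 with DESeq2, and 17 without KO3 (median -3.33). In KO3, 14 members lay below TKO and 5 above, beside 5432 and 5648 of all 15514 genes tested. Among the 5 was the complexin gene Cplx2 at 272 CPM against 136, 211 and 109 CPM in TKO, named after its value was seen. Snap25, a SNARE protein of vesicle fusion, had 104, 136 and 480 CPM in TKO and 0.0678, 0 and 24.3 CPM in the knockout (adjusted p = 0.0914, lost when any library other than KO3 was left out). Sv2b fell too, from 2.26, 2.49 and 65.2 CPM to at most 0.393 CPM, a call lost without TKO3, KO1 or KO2 and with DESeq2.

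Of 25 ion channels and receptors of neurons, 7 were called lower and 1 higher (32.0% called, beside 38.8% of all genes), with a median log2 fold change of -2.11. Without KO3 the counts were 19 and 1 (median -6.46). KO3 lay below TKO in 13 members, within its range in 5 and above it in 7, beside 5432, 4434 and 5648 of all 15514 genes tested. The glutamate receptor subunit Grin3a was low in all knockout libraries, at 0.407, 0.233 and 0.506 CPM, against 33.0, 5.73 and 86.4 CPM in TKO (log2 fold change -6.75, SE 1.10, adjusted p = 0.00407; -5.60 without TKO3). The sodium channel subunit Scn3b had 18.1, 4.16 and 46.8 CPM in TKO and 1.15, 0 and 0.169 CPM in the knockout (adjusted p = 0.0306). Gria2, an AMPA receptor subunit, was close to 0 in all 3 knockout libraries as well. The member called higher, named after its value was seen, was the GABA receptor subunit Gabra3, at 0, 0 and 0.133 CPM in TKO and 9.36, 0.467 and 12.8 CPM in the knockout. Lingo1, a neuronal surface protein, belongs to the genes lost in KO3 too: 81.4, 88.8 and 59.4 CPM in TKO and 0.0678, 0.642 and 2.70 CPM in the knockout (log2 fold change -6.05, SE 1.34, adjusted p = 0.0121; -7.64 without KO3).

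**Figure D2:**
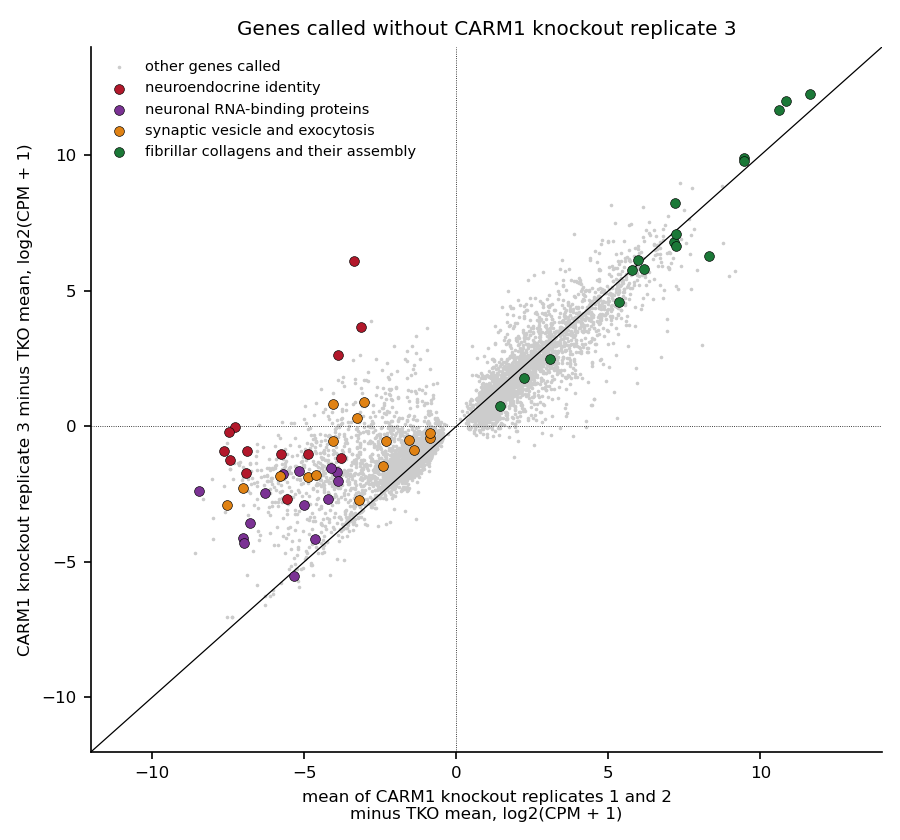
Each point is a gene called in the fit without KO3. The horizontal axis is the mean difference of KO1 and KO2 from the TKO mean and the vertical axis that of KO3, both on the scale log2(CPM + 1), with a line at equality. Collagen genes lie along the line, while neuroendocrine and synaptic genes lie above it, some of them above 0.

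Most genes of simple epithelia were highest in KO3, a pattern of a single library. The median of 16 genes of epithelial adhesion and keratins was 1.80, 0.328 and 0.177 CPM in TKO and 0.237, 0.525 and 33.4 CPM in the knockout, and their sum was 126, 62.0 and 23.7 CPM in TKO and 11.8, 46.7 and 1202 CPM in the knockout. Of 12 members tested, KO3 lay above TKO in 10, KO1 in 1 and KO2 in 3, beside 5648, 5680 and 5865 of all 15514 genes tested. Exceptions were Elf3, at 25.1 CPM in TKO2 against 18.3 CPM in KO3, Krt19, at 34.3 CPM in TKO1 and 25.1 CPM in KO2 against 8.60 CPM in KO3, and Esrp2, a splicing regulator at 9.27 CPM in KO2 against 7.42 CPM in KO3, all named after their values were seen. Of the list only Esrp2 was called higher, the median log2 fold change was 3.07, and without KO3 the median was -1.42 with 1 called higher and 2 lower. By the rule for genes that stand out in a single knockout library, 3 of the 5 named for KO3 came from this list. Cdh1, the E-cadherin of epithelial junctions, had 1.92, 0.569 and 1.33 CPM in TKO, 1.36 and 5.19 CPM in KO1 and KO2, and 258 CPM in KO3. The keratin Krt8 had 3.22, 0.0437 and 0.399 CPM in TKO, 0.271 and 0.525 CPM in KO1 and KO2, and 232 CPM in KO3. Its partner Krt18 had at most 1.68 CPM in TKO, 0.610 and 2.92 CPM in KO1 and KO2, and 124 CPM in KO3. None of the 3 was called, and in each of them KO1 or KO2 lay within the TKO range. DESeq2 called all 3 higher, and Cdh1 was also called with the 6 libraries alone and with a minimum of 10 counts, and Krt18 without KO1. Without KO3 their log2 fold changes were 1.41 (Cdh1), -1.51 (Krt8) and 0.65 (Krt18).

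**Figure D3:**
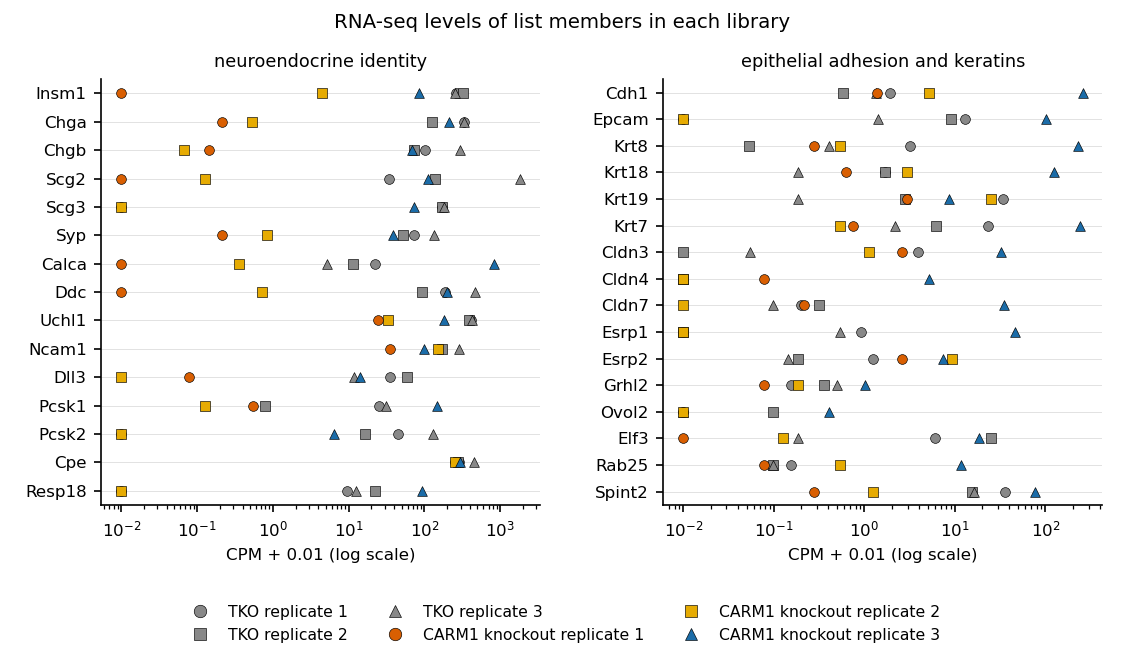
CPM of members of the neuroendocrine and epithelial lists in each library, on a log scale with 0.01 added. KO3 (blue triangles) lies among or near the TKO libraries (grey) for most neuroendocrine genes and above them for most epithelial genes, at 258 CPM for Cdh1.

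The other genes named for single libraries came from the same rule, which picked the 5 genes standing out most in each knockout library. It therefore fixed that KO1 and KO2 had such genes too. In KO3 they were Bfsp1, a beaded filament protein of the lens (134.6 CPM, at most 0.933 CPM elsewhere), and the carbonic anhydrase-related gene Car8 (93.5 CPM, at most 1.99 CPM elsewhere). In KO1 they were the granulocyte growth factor Csf3 (109.7 CPM), the hypoxia-inducible factor Epas1 (245 CPM), the secreted proteins Scube1 (78.0 CPM) and Spon1 (158 CPM), and the iron-binding Lcn2 (81.8 CPM). In KO2 they were the protease Adamts16 (101 CPM), the chemokine Cxcl15 (295.8 CPM), the ligand Wnt5a (589 CPM), the coagulation factor subunit F13a1 (81.1 CPM) and the annexin Anxa8 (576 CPM). The size of these values rests on a single library. Wnt5a was called higher with a log2 fold change of 5.86 although its libraries overlapped, and lost its call without KO2 (1.29) and in 6 other alternatives. Epas1 was called higher with 5.26 and had 2.10 without KO1, where it kept its call. The call of Epas1 was lost with the replicate block. KO2 and KO3 (5.95 and 13.5 CPM) also lay above TKO (at most 3.98 CPM) in Epas1.

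Of 2836 called falls KO3, which took part in the calls, lay within the range of TKO in 66, KO1 in 38 and KO2 in 40. By the naming rule the 5 with the highest TKO levels of the 66 were mt-Nd2, Nbas, mt-Nd4, H1f0 and Aplp1. For Nbas, next to Mycn, the position of KO3 reflects TKO3: the gene had 1565, 3339 and 58.7 CPM in TKO and 65.6, 60.6 and 64.8 CPM in the knockout. The mitochondrial genes mt-Nd2 and mt-Nd4 behaved alike, with TKO1 at the level of the knockout (1172 and 817 CPM in TKO1; 1176 and 869 CPM in KO3), and for the linker histone gene H1f0 TKO3 was the low library, at 341 CPM against 349 CPM in KO3. The calls of mt-Nd2, mt-Nd4, H1f0 and Aplp1 were each lost in at least 7 of 15 alternatives. Only for Aplp1, an amyloid precursor-like protein of neurons, was KO3 clearly apart from its own group, at 104 CPM against 24.5 and 28.9 CPM in KO1 and KO2 and 158, 87.0 and 408 CPM in TKO (log2 fold change -2.05; -2.99 without KO3).

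Extracellular matrix rose in all 3 knockout libraries, KO3 included. The median of 18 genes of collagens and their assembly was 9.90, 6.63 and 1.95 CPM in TKO and 526, 830 and 614 CPM in the knockout, with no gene overlapping between the genotypes. All 18 were called higher (median log2 fold change 7.09), 17 without KO3 and 16 with scaling by library totals. Col1a1, a chain of type I collagen, had 0.288, 3.85 and 0.354 CPM in TKO and 6752, 6204 and 10055 CPM in the knockout (log2 fold change 12.31, SE 1.40, adjusted p = 0.00116). Col3a1, the chain of type III collagen, had 0, 3.98 and 0.709 CPM in TKO and 2775, 3707 and 6655 CPM in the knockout (11.44, SE 1.63, adjusted p = 0.00256). For these chains and Col1a2, TKO2 held most of the TKO counts, and without it the log2 fold changes of Col1a1, Col1a2 and Col3a1 were 14.51, 14.77 and 13.54, values that rest on few TKO counts.

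Among 20 matrix glycoproteins, proteoglycans and matrix proteases, 18 were called higher and 1 lower (median log2 fold change 6.37), 19 and 1 without KO3. Their median was 7.02, 5.12 and 1.57 CPM in TKO and 684, 809 and 333 CPM in the knockout. The matrix protease Mmp2 had 0.577, 1.57 and 1.68 CPM in TKO and 840, 1113 and 241 CPM in the knockout, with KO3 the lowest (9.15, SE 1.10, adjusted p = 0.00138). Periostin (Postn) was highest in KO3 instead, with 0.288, 0.306 and 0.487 CPM in TKO and 110.0, 83.2 and 373 CPM in the knockout (9.001, SE 0.89, adjusted p = 0.000778; 8.08 without KO3). Mfap5, a microfibril protein, had no count in TKO and 32.7, 28.7 and 109.8 CPM in the knockout, at least 419.5-fold higher, or 225.9-fold without KO3. The member called lower was elastin (Eln), at 36.5, 58.8 and 89.6 CPM in TKO and 1.56, 0.817 and 0.787 CPM in the knockout, far below TKO in all 3 libraries (-5.87, SE 0.98, adjusted p = 0.00441).

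Most contractile and mesenchymal genes were called higher too. All 16 genes of the contractile apparatus and focal adhesions were called higher with and without KO3 (median log2 fold change 3.77), with medians of 30.2, 19.2 and 17.2 CPM in TKO and 477, 424 and 484 CPM in the knockout. Acta2, the smooth muscle actin of myofibroblasts, had 6.68, 1.62 and 0.443 CPM in TKO and 762, 331 and 1537 CPM in the knockout (8.24, SE 1.36, adjusted p = 0.00418; 9.74 without TKO1). The fibronectin receptor subunit Itga5 had 2.26, 3.24 and 0.842 CPM in TKO and 374, 381 and 250.6 CPM in the knockout (7.30, SE 0.61, adjusted p = 0.000447). Of 17 mesenchymal regulators and receptors, 13 were called higher and none lower (median 4.99), and 13 higher and 1 lower without KO3. Thy1, a surface protein of fibroblasts, had 3.75, 1.22 and 6.96 CPM in TKO and 762, 447 and 287 CPM in the knockout (6.97, SE 0.78, adjusted p = 0.00109; 7.69 without TKO3), and Prrx1, a homeodomain factor of mesenchyme, had 7.25, 3.46 and 0.354 CPM in TKO and 679, 247 and 427 CPM in the knockout. Every named gene of this paragraph was separated from TKO in each knockout library.

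Among the pathways that read out cell contact and growth factors, the YAP and TEAD list was called most fully. Here 10 of 11 genes were called higher, with and without KO3 (median log2 fold change 5.03). Yap1, the Hippo pathway coactivator, which was counted among the subtype regulators instead, had 7.02, 3.67 and 2.84 CPM in TKO and 162, 197 and 106 CPM in the knockout (5.10, SE 0.45, adjusted p = 0.000497). The list member Ccn1, a target of YAP, had 9.99, 3.32 and 1.28 CPM in TKO and 221, 679 and 247 CPM in the knockout (6.30, SE 0.97, adjusted p = 0.00327; 7.39 without TKO1). In the TGF-beta pathway 9 of 12 genes were called higher (median 3.29), including the receptor gene Tgfbr2, with 13.6, 3.76 and 7.22 CPM in TKO and 177, 623 and 179 CPM in the knockout (5.32; 4.44 without KO2). Among AP-1 and immediate early genes 6 of 11 were called higher and none lower (54.55% called, beside 38.8% of all genes, of which 20.5% were higher). The median was 0.99, and 7 were called higher without KO3 and 5 with scaling by library totals. The AP-1 subunit Fosl1 had 6.20, 4.37 and 1.06 CPM in TKO and 100.2, 83.0 and 36.9 CPM in the knockout (4.24, SE 0.68, adjusted p = 0.00377), whereas Fos overlapped between the genotypes. The Notch list had no common direction, with 2 of 10 genes higher and 2 lower (40.0% called, beside 38.8% of all genes; median -0.82; 2 and 3 without KO3). The receptor gene Notch3 was highest in KO3, at 73.3 CPM against 7.32 and 8.75 CPM in KO1 and KO2 and at most 1.10 CPM in TKO (5.62; 3.78 without KO3), and the target Hey1 was lowest in KO1 and KO2, at 1.02, 1.52 and 8.71 CPM in the knockout against 31.8 to 46.4 CPM in TKO (-3.40; -4.91 without KO3).

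Promoters of 4 genes of these programs, all called higher, are printed to show the letters that factors of the AP-1, TEAD and serum response pathways are known to bind, as capitals in the same 300-base windows of RefSeq on GRCm38.p6. The TEAD motif CATTCC (capitals in Col3a1, chr1:45311288-45311587, plus strand, and in Ccn1, chr3:145649936-145650235, minus strand) was found in 14.7% of all promoters of the table. The AP-1 motif TGANTCA (capitals in Il6, chr5:30012864-30013163, plus strand) was found in 7.81%, and the CArG box (capitals in Myl9, the gene of a myosin light chain named after its value was seen, chr2:156775214-156775513, plus strand) in 1.63%. The palindrome of nuclear factor I, TTGGC and GCCAA 5 bases apart, was found in 12 promoters (0.0365%). Motifs were searched on both strands, and a match describes letters, not a bound site. The table held promoters of 11550 of the 15514 genes tested (74.5%), under the 80% needed for a comparison, so shares of genes called higher and lower were not compared.
Col3a1: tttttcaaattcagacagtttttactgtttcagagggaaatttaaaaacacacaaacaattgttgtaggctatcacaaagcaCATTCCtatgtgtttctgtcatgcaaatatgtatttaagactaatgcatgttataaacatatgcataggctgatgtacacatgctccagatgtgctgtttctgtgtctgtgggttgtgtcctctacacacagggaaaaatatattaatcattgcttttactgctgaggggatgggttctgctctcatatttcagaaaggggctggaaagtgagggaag
Ccn1: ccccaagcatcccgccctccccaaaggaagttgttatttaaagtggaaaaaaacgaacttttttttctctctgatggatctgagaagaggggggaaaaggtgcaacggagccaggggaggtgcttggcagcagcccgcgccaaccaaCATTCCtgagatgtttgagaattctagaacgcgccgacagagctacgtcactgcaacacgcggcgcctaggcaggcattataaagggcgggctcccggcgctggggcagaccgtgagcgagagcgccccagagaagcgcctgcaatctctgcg
Il6: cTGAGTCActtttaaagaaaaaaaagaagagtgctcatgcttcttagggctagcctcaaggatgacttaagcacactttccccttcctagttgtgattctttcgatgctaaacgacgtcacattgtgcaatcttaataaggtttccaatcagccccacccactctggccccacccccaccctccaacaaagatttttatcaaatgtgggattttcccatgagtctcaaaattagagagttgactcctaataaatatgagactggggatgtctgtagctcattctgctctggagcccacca
Myl9: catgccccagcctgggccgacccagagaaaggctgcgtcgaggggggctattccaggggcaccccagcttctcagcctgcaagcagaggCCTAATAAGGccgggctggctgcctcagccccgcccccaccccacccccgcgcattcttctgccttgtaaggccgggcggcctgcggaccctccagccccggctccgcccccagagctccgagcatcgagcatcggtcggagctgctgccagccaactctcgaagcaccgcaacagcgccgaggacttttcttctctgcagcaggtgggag

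Inflammatory genes rose in every knockout library and were strongest in KO1. Of 14 acute-phase genes and inflammatory ligands 13 were tested and all 13 called higher, with and without KO3 (median log2 fold change 8.19). The list summed to 43.6, 27.5 and 27.2 CPM in TKO and 8036, 3058 and 2330 CPM in the knockout. The cytokine gene Il6 had 2, 0 and 0 counts in TKO and 159, 14.7 and 16.3 CPM in the knockout (adjusted p = 0.0122). The chemokine gene Cxcl5 had 0, 5 and 0 counts in TKO and 296, 24.6 and 198 CPM in the knockout (adjusted p = 0.0113). Saa3, an acute-phase protein, had at most 0.177 CPM in TKO and 2504, 86.0 and 506 CPM in the knockout. All 13 interferon-stimulated genes were called higher as well (median 5.34), from medians of 0.577, 0.306 and 2.22 CPM in TKO to 86.7, 31.0 and 30.6 CPM. Isg15, a ubiquitin-like modifier, had 0.288, 0.131 and 0.266 CPM in TKO and 229, 64.4 and 72.9 CPM in the knockout (9.02, SE 1.66, adjusted p = 0.00631; 8.21 without KO1). The 10 genes of MHC class I antigen presentation were called higher, 9 without KO3 (median 2.76), with list medians of 81.8, 24.3 and 52.2 CPM in KO1, KO2 and KO3 against 5.52 to 11.3 CPM in TKO: B2m, the light chain, had 30.7, 33.9 and 76.3 CPM in TKO and 861, 258 and 538 CPM in the knockout (3.56, SE 0.77, adjusted p = 0.0113). In 2 of these 10 genes KO2 lay within the TKO range, beside 3648 of all 15514 genes tested. Genes of the Saa, Ifit, Ccl and MHC class I families resemble each other, and reads shared between near copies make their single values uncertain.

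Transcripts of myeloid leukocytes moved with the genotype too. Of 12 leukocyte genes 10 were tested, 9 called higher and none lower (median log2 fold change 5.90), and without KO3 5 were called higher (median 5.09). The list summed to 55.1, 5.03 and 6.34 CPM in TKO and 933, 189 and 2788 CPM in the knockout, highest in KO3 and lowest in KO2. The gene with most counts was Lyz2, the lysozyme of myeloid cells, at 39.5, 1.71 and 0.487 CPM in TKO and 607, 141 and 1967 CPM in the knockout. The macrophage marker Adgre1 had 0.144, 0 and 0.266 CPM in TKO and 25.1, 3.56 and 43.0 CPM in the knockout (adjusted p = 0.0419, call lost without TKO1 or TKO2). Siglecg, a lectin of leukocytes, had no count in TKO and 25.4, 3.91 and 41.3 CPM in the knockout, at least 173.1-fold higher, or 107.7-fold without KO3. Cd3e of T cells had no count in any library, and the B cell gene Cd79a, named after its value was seen, lay below TKO in all 3 knockout libraries (0.529, 0.525 and 0.532 CPM in TKO; 0, 0.117 and 0.225 CPM in the knockout) without being called. Whether these transcripts came from cells with or without Cre activity was not tested, nor was the part of myeloid cells in the inflammatory and interferon results.

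**Figure D4:**
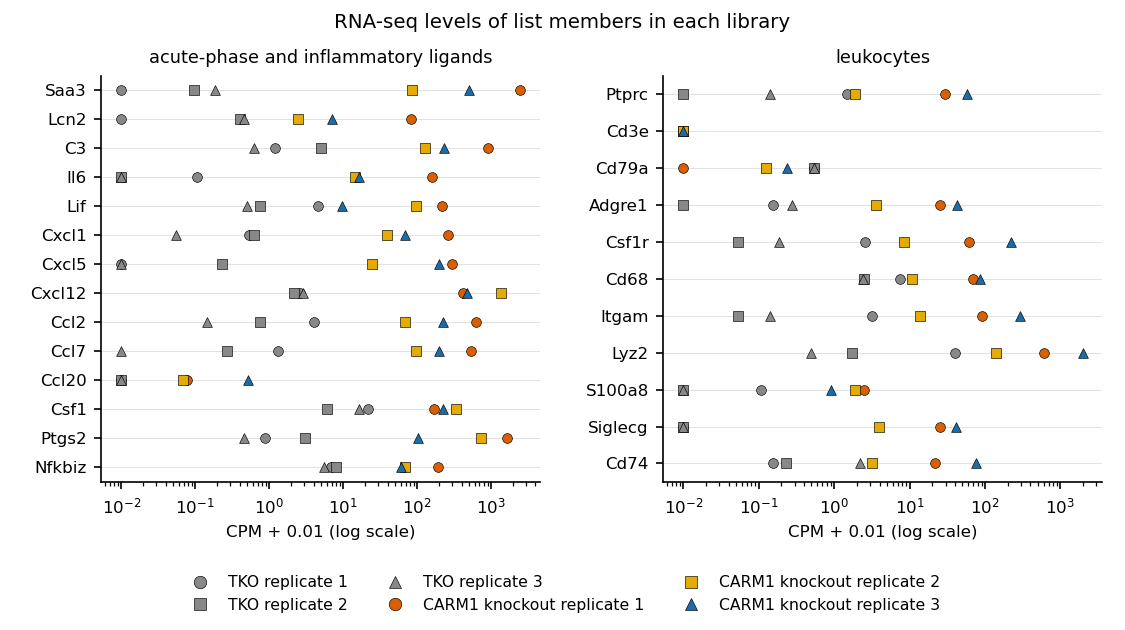
CPM of members of the inflammatory and leukocyte lists in each library, on a log scale with 0.01 added. KO1 is the highest library for most inflammatory genes (2504 CPM for Saa3), and KO3 for most leukocyte genes (1967 CPM for Lyz2).

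Lists of other cell types had few genes and low sums. The 7 endothelial genes summed to 21.3, 5.86 and 17.9 CPM in TKO and 13.2, 4.02 and 74.0 CPM in the knockout, with Vwf holding the most counts, Emcn without a count in any library, and 1 of 5 tested called higher (median log2 fold change 1.53; -1.08 without KO3). The 6 genes of smooth muscle and pericytes summed to 4.13, 4.64 and 4.79 CPM in TKO and 26.8, 20.9 and 62.3 CPM in the knockout, 2 of 6 called higher (median 2.07; 3 called higher and median 0.62 without KO3), and the smooth muscle actin Actg2 held the most counts, at 0, 0.0437 and 0.0443 CPM in TKO and 13.0, 16.7 and 41.7 CPM in the knockout. The 5 mesothelial genes summed to 14.7, 0.962 and 0.399 CPM in TKO and 5.56, 94.7 and 19.8 CPM in the knockout, the largest part from Msln in KO2, with Upk3b and Krt14 without a count and 1 of 2 tested called higher (median 4.52). The 5 genes of neural crest and Schwann cells summed to 7.97, 7.87 and 14 CPM in TKO and 0.746, 1.17 and 32.6 CPM in the knockout, mostly from Erbb3, with 1 of 2 tested called lower (median -1.03; -3.29 without KO3). Of 11 genes of alveoli and airways 6 were tested, 1 was called lower (median -0.82; -2.57 without KO3), and the sums were 15.5, 4.77 and 47.2 CPM in TKO and 1.76, 4.49 and 64.3 CPM in the knockout, with Sftpc, a surfactant protein, at 58.9 CPM in KO3 and Scgb3a2 without a count. KO3 thus had the largest sum of the knockout libraries in the endothelial, muscle, Schwann cell and alveolar lists, and the part of such cells in the results was not tested.

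Among regulators that mark lineage, position and tumor subtype, calls went in both directions. Of 39 Hox genes 15 were tested, 7 called higher and 7 lower, with and without KO3 (median log2 fold change -1.27). The division followed the clusters: the genes called higher lay in the Hoxa cluster and those called lower in the Hoxb cluster. Hoxa3 had no count in TKO and 15.4, 14.5 and 16.9 CPM in the knockout, at least 114.4-fold higher, and Hoxa5 had 0, 0.525 and 0 CPM in TKO and 63.7, 35.8 and 49.9 CPM in the knockout. Hoxb5 had 86.8, 112 and 145 CPM in TKO and 26.7, 16.5 and 19.8 CPM in the knockout (-2.45, SE 0.39, adjusted p = 0.00373). Among these 3 genes the knockout libraries differed by less than the genotypes did, and Hoxa7 spread more, at 31.4, 8.11 and 16.9 CPM in the knockout against at most 0.262 CPM in TKO. Among 14 lung lineage factors, 12 tested, 4 were called higher and 1 lower (41.7% called, beside 38.8% of all genes; median 1.51; 4 and 0 without KO3, median 2.11). The T-box factor Tbx5 of lung mesenchyme had 0, 0.175 and 0.0443 CPM in TKO and 23.3, 10.4 and 16.1 CPM in the knockout (adjusted p = 0.00109), and the forkhead factor Foxf2 rose from 2.26, 0.744 and 1.55 CPM to 48.9, 34.5 and 15.0 CPM. Of the endodermal factors, Foxa1 was missing from KO1 alone, at 137, 185 and 95.5 CPM in TKO and 0, 77.7 and 98.8 CPM in the knockout, and Nkx2-1, named after its value was seen, had 601, 386 and 236 CPM in TKO and 0.339, 47.9 and 102 CPM in the knockout. Neither was called, nor was Foxa2. Ephb3, an ephrin receptor, was not called either, at 48.2, 80.3 and 53.6 CPM in TKO and 43.9, 91.7 and 74.8 CPM in the knockout (log2 fold change 0.21, SE 0.30, adjusted p = 0.602).

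Of 8 subtype regulators and MYC family genes 6 were tested, 3 called higher (Yap1, Rest and Myc) and 2 lower (83.33% called, beside 38.8% of all genes). Their median log2 fold change was 0.24, with the sign reversed under library totals (-0.06) and DESeq2 (-1.44 over 8 genes). Rest, a repressor of neuronal genes, had 4.18, 6.69 and 5.63 CPM in TKO and 60.1, 60.5 and 50.1 CPM in the knockout, far closer within each genotype than between them (3.37, SE 0.24, adjusted p = 0.000331). KO3 had nearly as much Rest as KO1 and KO2 beside its neuroendocrine transcripts. Mycn (chromosome 12 from 12936093 to 12941914) had 1173, 1560.3 and 19.1 CPM in TKO and 1.22, 0.817 and 1.57 CPM in the knockout (-9.56, SE 1.85, adjusted p = 0.00762; -8.95 without TKO2), so that TKO3 stood far below the other TKO libraries and above all knockout libraries. Myc ran the other way, at 2.88, 1.44 and 27.9 CPM in TKO and 78.9, 87.2 and 56.1 CPM in the knockout (2.78, adjusted p = 0.0647; 5.13 without TKO3; call lost when any of TKO1, TKO2, KO1 or KO2 was left out). Mycl, with 146, 14.7 and 7.18 CPM in TKO, was high in TKO1 alone (log2 fold change -2.30; 0.07 without TKO1) and not called (adjusted p = 0.108). It was called lower in 6 of 15 alternatives: library totals, upper quartile, DESeq2, a minimum of 10 counts, without TKO2 and without TKO3.

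Mitosis genes were called about as often as other genes. Among 16 mitosis genes 2 were called higher and 4 lower (37.5% called, beside 38.8% of all genes; median log2 fold change -0.17), 2 and 3 without KO3, 1 and 5 with library totals, and 1 and 4 with upper quartile. The proliferation marker Mki67 had 1009, 933 and 688 CPM in TKO and 451, 386 and 449 CPM in the knockout (-1.03, SE 0.23, adjusted p = 0.0122), and Cenpf of the kinetochore 328.5, 464 and 293 CPM in TKO and 88.1, 83.0 and 87.2 CPM in the knockout (-2.07, SE 0.25, adjusted p = 0.00127). Ccnb2, a mitotic cyclin, rose from 16.2, 14.1 and 32.8 CPM to 68.2, 105 and 82.1 CPM. Among 16 cytosolic ribosomal protein genes, whose reads are shared with many pseudogenes, 2 were called higher (12.5% called, beside 38.8% of all genes), 3 without KO3. Their median log2 fold change was 0.43, and the medians were 656, 842 and 308 CPM in TKO and 902, 858 and 773 CPM in the knockout. TKO3 was the low library of this list.

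Of the 20 single genes with the largest changes, 10 in each direction, 6 belong to a list above. Besides the 3 collagens, Saa3 and Mfap5, the rises were Brinp3, Serpinb2, Steap4, Slit3 and Lrrc32. Brinp3 had no count in TKO and 96.9, 14.6 and 20.2 CPM in the knockout, at least 322.7-fold higher, or 128.1-fold without KO1. Lrrc32, which holds latent TGF-beta at the cell surface, had 0.0480, 0.262 and 0 CPM in TKO and 335, 164 and 492 CPM in the knockout (adjusted p = 0.000578). All but Gpc3 of the falls kept their calls in the 14 alternatives that tested them. The falls were Calb1, Reln, Epha5, Zic1, Nr1h5, Gria2, Necab2, Zfp536, Slc6a15 and Gpc3, all with at most 5 counts in any knockout library, KO3 included. Slc6a15, a neutral amino acid transporter, had 167, 147 and 14.6 CPM in TKO and 0.271, 0 and 0 CPM in the knockout (adjusted p = 0.00514). Necab2, a neuronal calcium-binding protein, had 36.5, 46.1 and 343 CPM in TKO and 0.203, 0 and 0.112 CPM in the knockout (adjusted p = 0.00548). The rule that named these 20 genes required all knockout libraries to lie beyond TKO, so it fixed the side of KO3.

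ATAC-seq counts open chromatin, and by the Results it was made from the same tumor biopsies, though which RNA-seq and ATAC-seq libraries share a tumor is given by no more than the replicate number. For each member of the neuroendocrine, collagen and matrix lists the reads of the peak nearest to a start site (within 1000 bp) are described, without a test. Start sites of all annotated transcripts were used, so some of these peaks lie inside the gene and not at its first base. For Col1a2, which starts at 4504814 on chromosome 6, the peak lay at 4537145 to 4538077, and the peaks of Mmp2 and Eln also lay inside the gene. All 16 neuroendocrine genes had such a peak, with medians of 40.5, 34.8 and 26.3 ATAC-seq CPM in TKO and 2.22, 2.84 and 7.09 in the knockout. In 14 genes all knockout libraries lay below all TKO libraries, and Calca and Pcsk1 overlapped. With TMM scaling, such peaks as a whole leaned the same way: of 13944 tested genes with one, 7078 (50.8%) lay below TKO in all knockout libraries and 1846 (13.2%) above. This count was not repeated with library totals, which moved the log2 ratio of list medians upward in each list, from -2.95 to -2.30 for neuroendocrine genes. How far the lean depends on scaling was therefore not tested. At the Chga peak, which covers the promoter printed above, the values were 53.9, 42.4 and 31.7 CPM in TKO and 1.90, 1.63 and 12.2 CPM in the knockout. KO3 was the highest of the knockout libraries there, yet below all TKO libraries, whereas its RNA lay inside the TKO range.

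Of the 18 collagen genes 17 had a peak near an annotated start site, with medians of 3.20, 3 and 3.38 ATAC-seq CPM in TKO and 21.1, 21.95 and 16.7 in the knockout. In 13 all knockout libraries lay above TKO, 3 overlapped, and P4ha1, a prolyl hydroxylase subunit whose RNA rose, lay below. Col3a1, whose printed promoter lies within its peak, had 0.120, 0.0588 and 0.199 CPM in TKO and 6.004, 5.02 and 5.75 CPM in the knockout. Of the 20 matrix genes 17 had a peak, with medians of 2.69, 1.32 and 3.02 CPM in TKO and 11.5, 7.23 and 10.4 CPM in the knockout. Here 11 were higher, 4 overlapped, and Sparc and Fbln2 were lower while their RNA rose. At Thbs1, a thrombospondin, the values were 4.07, 4.41 and 6.43 CPM in TKO and 73.6, 54.8 and 131 CPM in the knockout. Genes singled out here were named after their values were seen.

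**Figure D5:**
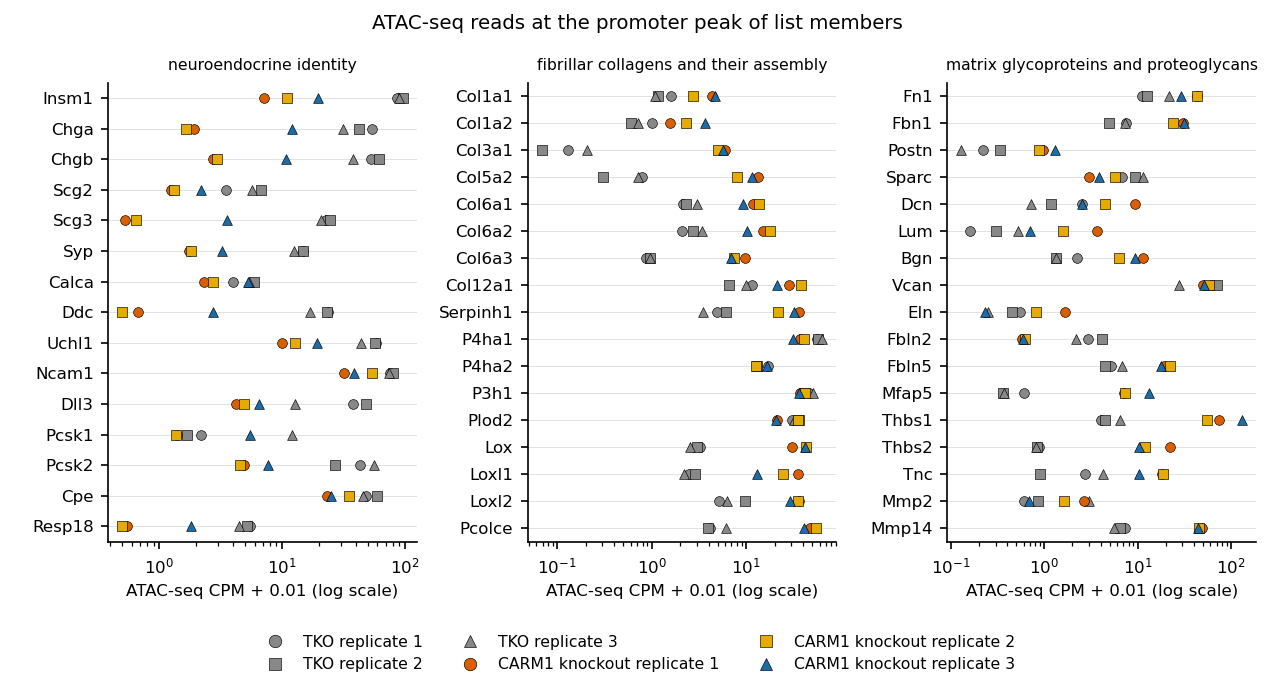
ATAC-seq CPM of the peak nearest to any annotated start site of list members in each library, on a log scale with 0.01 added. Some of these peaks lie inside the gene. Knockout libraries (colored) lie left of TKO (grey) at most neuroendocrine genes (1.90, 1.63 and 12.2 CPM at Chga) and right of it at most collagen genes.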

How the data were processed

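The authors sequenced RNA with paired-end reads of 150 bp and removed reads under 50 bp after trimming. They used hisat2 for mapping (mm10) and name both htseq-count and featureCounts for counts, with no strand setting given. Deposited values are raw counts per gene and, for ATAC-seq, raw counts per merged peak. The assignment of count columns to genotypes follows the paper's legends. All 9 RNA-seq libraries entered one edgeR 4.0.16 quasi-likelihood model (R 4.3.3, TMM scaling, filterByExpr), with p adjusted by Benjamini-Hochberg over all genes tested. DESeq2 1.42.0 was an alternative. Tables and figures used Python 3.11.15, numpy 2.4.6, pandas 2.3.3 and matplotlib 3.10.9.

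The comparison, thresholds, 30 gene lists, alternatives and naming rule were written down before the count files were opened. Members and lists were chosen with earlier results of these data known, so counts within lists partly restate that choice. Named were: the 10 largest called rises and falls among genes with a mean of at least 5 log2 CPM and no overlap; in each list up to 3 called members per direction with at least 10 CPM; the 5 genes standing out most in each knockout library; the 5 most abundant falls with KO3 in the TKO range; Carm1, its relatives, the suppressor genes and genes the study shows. Summary counts (reads outside genes) were left out. The NFIB mutant libraries served the model only.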

Additional observations from a re-analysis of the deposited data

How the results depend on the processing

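Of the 6021 genes called, none was called in the opposite direction in any of 15 alternatives. Called higher and lower were 2508 and 3856 genes with scaling by library totals, 2809 and 3334 by upper quartile, 3622 and 3665 with DESeq2, 3158 and 2412 without a filter on low counts, and 2941 and 2730 with the 6 libraries alone. A minimum of 10 counts in each of the 6 libraries tested fewer genes (11303) and called 2086 higher and 2123 lower. The replicate number as a block gave 2966 higher and 2519 lower. For pairing, each library was expressed as its deviation from the mean of its genotype in every gene. These deviations correlated at r = -0.0368, 0.118 and 0.0438 between TKO and knockout libraries with the same number, close to 0, and the libraries were not paired. Leaving out each library in turn gave 2707 to 3428 genes higher and 1962 to 3209 lower. Of 106 named genes that were called, all kept their sign and 76 were called in every alternative that tested them (14 or 15). Of 23 not called, 12 changed sign between alternatives. For promoter accessibility the log2 ratio of list medians was 3.06 for collagens (3.65 with library totals, 2.30 with peaks within 250 bp), 1.82 for matrix genes (2.35 and 2.90) and -2.95 for neuroendocrine genes (-2.30 and -2.95). The causes were not tested. A fall below 3 counts in a library could not be sized. Gene counts do not resolve exons, near copies of genes share reads, and differences in sort purity or tumor composition cannot be told apart from genotype in these 3 animals per genotype.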
